A study of Mus musculus with 4 samples.

Results

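The POU genes described here are the 9 rows Pou5f1, Pou2f1, Pou2f2, Pou2f3, Pou3f1, Pou3f2, Pou3f3, Pou4f2 and Pou6f1, found by gene ID among the 20296 genes of the authors' deposited comparison of 2 mouse pluripotent states. They were picked by name from the POU family, with no threshold on measured values, and the table holds 6 more POU genes. The states were epiblast-like stem cells (EpiLSC), which resemble the epiblast just after implantation, and naive embryonic stem cells (nESC), which resemble the epiblast before it. EpiLSC were made from nESC in N2B27 medium with activin A at 20 ng/ml and the growth factor bFGF at 12 ng/ml and were collected on day 3, and nESC were kept in 2i/LIF. Each state had 2 samples, 1 from the line R1 and 1 from the line E14TG2a, with no transgene or mutation named in the labels. The spread within a state therefore includes the difference between the lines, each line was sampled 1 time per state, and effects of the medium and of the state cannot be told apart.

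POU factors bind DNA through a bipartite domain, a POU-specific part joined to a homeodomain, and most of them recognise an octamer motif. POU5F1 (OCT4) pairs with SOX2 on composite octamer-SOX elements and is required for pluripotency in both states, whereas POU3F1 (OCT6) is known from the epiblast after implantation, from neural commitment and from Schwann cells. POU2F1 (OCT1) is present in most cells, and the other members are best known from B cells, from tuft cells and skin, and from neurons.

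Promoter sequences were at hand for 7 of the 9 genes. They are shown for Pou5f1 and Pou2f1, the most abundant members, and for Pou2f2, which rose, as the 250 bases before a RefSeq start (build GRCm38.p6), read 5′ to 3′ on the strand of the gene, with capitals marking the GC box (GGGCGG) and the nuclear receptor element (AGGTCA).
Pou5f1, chr17:35505782-35506031, plus strand: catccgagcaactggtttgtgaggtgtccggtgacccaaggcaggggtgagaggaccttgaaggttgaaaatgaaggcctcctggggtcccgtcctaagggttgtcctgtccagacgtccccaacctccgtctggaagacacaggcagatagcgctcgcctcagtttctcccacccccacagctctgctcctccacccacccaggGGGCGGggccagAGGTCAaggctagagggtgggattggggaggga
Pou2f1, chr1:166002635-166002884, minus strand: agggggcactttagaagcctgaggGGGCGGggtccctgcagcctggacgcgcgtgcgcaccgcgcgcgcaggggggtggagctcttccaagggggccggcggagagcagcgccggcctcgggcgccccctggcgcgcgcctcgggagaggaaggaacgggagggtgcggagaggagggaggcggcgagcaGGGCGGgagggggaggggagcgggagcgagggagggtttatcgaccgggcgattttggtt
Pou2f2, chr7:25132461-25132710, minus strand: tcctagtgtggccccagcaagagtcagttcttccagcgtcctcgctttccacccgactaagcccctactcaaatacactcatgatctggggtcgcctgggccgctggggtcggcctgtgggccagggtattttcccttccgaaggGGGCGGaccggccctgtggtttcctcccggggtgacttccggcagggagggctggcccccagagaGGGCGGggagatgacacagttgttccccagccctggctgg

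The Pou5f1 window held 1 nuclear receptor element, 33 to 28 bases before the start, next to 1 GC box at 45 to 40 bases before it. Searched on both strands, the element occurred in 14% of all 32851 promoter windows of this length and the GC box in 32.7%. Of the 10 windows of the 7 genes, 7 held a GC box and 0 held the octamer ATGCAAAT or its reverse complement, against 1.6% of all windows. The Pou2f1 window shown had 29 CG pairs, that of Pou2f2 had 12 and that of Pou5f1 had 8, where the median window had 6. The other windows of these genes were unlike those shown: the further Pou2f1 windows had 2 CG pairs each and no GC box, and the further Pou5f1 window had 6 CG pairs and held neither element.

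The header names no direction, so marker genes served to read it: all 8 formative markers, among them Fgf5 and Dnmt3b, had positive fold changes, and all 8 naive markers, among them Nr5a2 and Esrrb, had negative ones. Positive values were therefore taken as higher in EpiLSC. The table gives no column per sample, but its means are sums of whole reads from 4 libraries. Those reads were recovered for all 9 members. The libraries are numbered 1 to 4 by falling size factor (the scale that corrects for sequencing depth), which ran from 1.28 to 0.735. Libraries 2 and 4 stand on the EpiLSC side of the authors' fold change and libraries 1 and 3 on the nESC side, since every gene read in library 2 or 4 alone had a positive fold change there and every gene read in library 1 or 3 alone a negative one. No library was assigned to a sample or a line, and no SD or test was made from these reads. A log2 ratio of normalized counts, where given below, compares the means of the libraries on each side and is a description. Total reads per sample are unknown.

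Of the 8 members with an adjusted p, 2 rose in EpiLSC and 1 fell (Wald test of DESeq2 with Benjamini-Hochberg adjustment, threshold 0.05, per the authors' deposited table). Among all 16361 tested genes 13.9% were called, 7.67% as risen and 6.23% as fallen. The 3 called members were Pou3f1 and Pou2f2, which rose, and Pou2f3, which fell. Pou5f1, Pou2f1, Pou3f3, Pou4f2 and Pou6f1 did not pass, and Pou3f2 had too few reads to be given an adjusted p. The median log2 fold change of the 8 was -0.18, against 0.02 for all tested genes, both from the authors' deposited table.

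**Figure D1:**
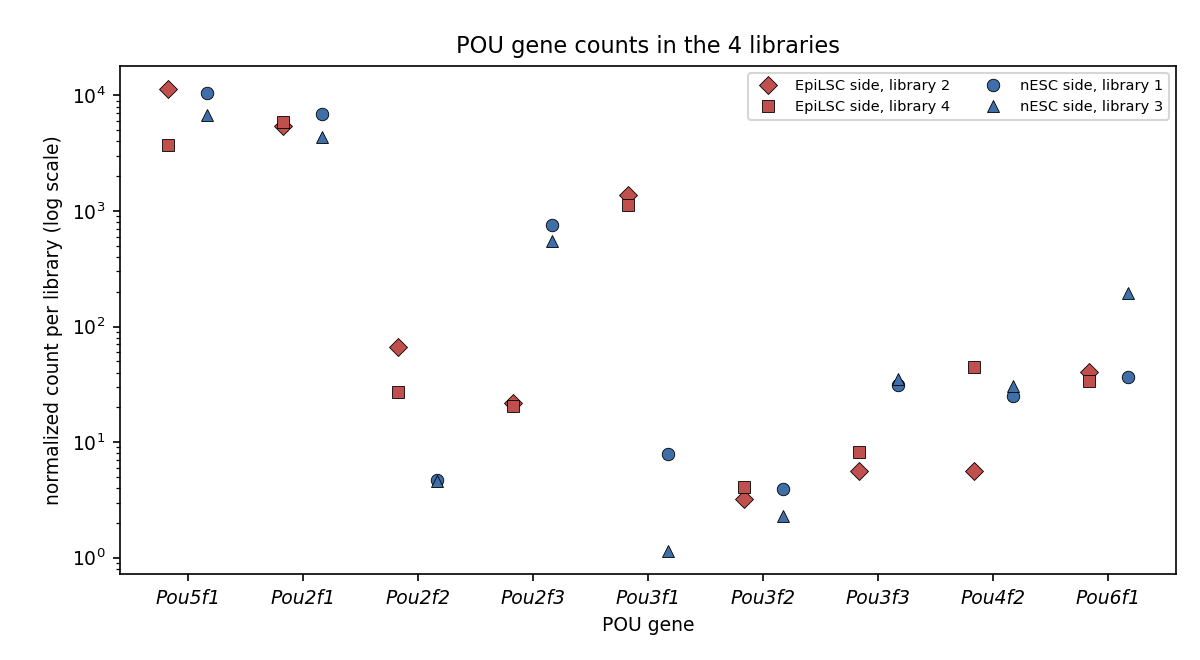
Normalized counts (log scale) of the 9 POU genes in each of the 4 libraries, with libraries 2 and 4 of the EpiLSC side in red to the left of libraries 1 and 3 of the nESC side in blue; each point is 1 library. Pou3f1 and Pou2f2 lie higher on the EpiLSC side and Pou2f3 and Pou3f3 lower, whereas the sides overlap for Pou5f1, Pou2f1, Pou3f2, Pou4f2 and Pou6f1.

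Pou3f1 (ENSMUSG00000090125.3, chromosome 4) had the largest change of the family. It had 1710 and 824 reads in libraries 2 and 4 of the EpiLSC side, against 10 and 1 reads in libraries 1 and 3 of the nESC side. As normalized counts these were 1381 and 1121 on the EpiLSC side, against 7.84 and 1.14 on the nESC side. The sides did not overlap, and the EpiLSC libraries lay within 1.23-fold of each other. The log2 fold change was 8.04 (SE 0.88, 95% interval 6.32 to 9.76, DESeq2 adjusted p 2.13e-17) in the authors' deposited table, or 263-fold. Among all 16361 tested genes 56 had a higher one, and 8 did among the 8218 of them whose mean was at least 300. The size of the fold rests on the 11 reads of the nESC side: from the normalized counts, the log2 ratio was 10.10 without library 1 and 7.32 without library 3, against 8.12 with all libraries.

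Pou5f1 (ENSMUSG00000024406.15, chromosome 17) was the most abundant member in both states and was not called. Its reads numbered 14036 and 2719 in libraries 2 and 4 of the EpiLSC side, against 13296 and 5877 in libraries 1 and 3 of the nESC side. Normalized, that is 11335 and 3699 on the EpiLSC side, against 10421 and 6708 on the nESC side. The sides overlapped, and the highest and the lowest of the 4 libraries were both on the EpiLSC side, 3.06-fold apart. In the authors' deposited table the log2 fold change was -0.19 (SE 0.76, 95% interval -1.67 to 1.30, DESeq2 adjusted p 0.978). The interval thus includes a fall or a rise of 2-fold, and no absence of change is shown. Its standard error exceeded that of 86.2% of tested genes with a mean within 2-fold of its own. The log2 ratio of normalized counts was -1.21 without library 2 and 0.40 without library 4 of the EpiLSC side. It was 0.16 without library 1 and -0.47 without library 3 of the nESC side, so its sign depends on which library is left out.

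Pou2f1 (ENSMUSG00000026565.17, chromosome 1), whose product activates small nuclear RNA and histone genes, had normalized counts of 5422 and 5841 in libraries 2 and 4 of the EpiLSC side, against 6949 and 4330 in libraries 1 and 3 of the nESC side. Both EpiLSC values lay between the nESC values. The log2 fold change was -0.002 (SE 0.64, 95% interval -1.25 to 1.25) in the authors' deposited table, and the ratio of normalized counts stayed between -0.30 and 0.38 on the log2 scale when any 1 library was left out.

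The other POU2 genes moved in opposite directions. Pou2f3 (ENSMUSG00000032015.14, chromosome 9), the regulator of tuft cells and a keratinocyte factor, fell: it had 27 and 15 reads in libraries 2 and 4 of the EpiLSC side, against 971 and 479 in libraries 1 and 3 of the nESC side. The normalized counts were 21.8 and 20.4 on the EpiLSC side, against 761 and 547 on the nESC side, with no overlap. Per the authors' deposited table, the log2 fold change was -4.95 (SE 0.70, 95% interval -6.33 to -3.58, DESeq2 adjusted p 1.85e-10), a 30.9-fold lower level in EpiLSC, and 2.43% of tested genes had a lower value. Leaving out any 1 library kept the log2 ratio between -5.17 and -4.70.

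Pou2f2 (ENSMUSG00000008496.17, chromosome 7), the octamer factor of B cells and some neurons, rose at a much lower level. Its reads were 82 and 20 in libraries 2 and 4 of the EpiLSC side, against 6 and 4 in libraries 1 and 3 of the nESC side. The normalized counts of 66.2 and 27.2 on the EpiLSC side and of 4.70 and 4.57 on the nESC side did not overlap. For this gene the authors' deposited table gives a log2 fold change of 3.34 (SE 1.12, 95% interval 1.14 to 5.54, DESeq2 adjusted p 0.025). Testing for a change beyond 2-fold ended the call (adjusted p 0.331), and without library 2 the log2 ratio of normalized counts was 2.55, against 3.33 with all libraries. In these bulk samples, a change in RNA per cell and one in the number of cells with the RNA cannot be told apart. This holds for Pou2f2 as for the others.

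**Figure D2:**
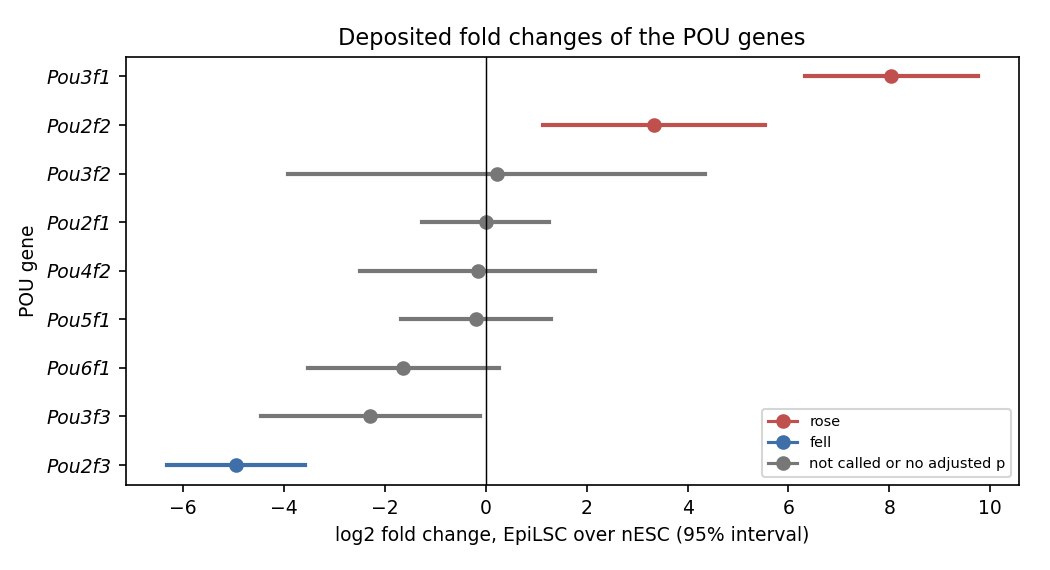
Log2 fold change of EpiLSC over nESC (horizontal axis) of the 9 POU genes with its 95% interval (bars), from the authors' deposited table; positive values are higher in EpiLSC. Pou3f1 at 8.04 and Pou2f2 at 3.34 rose, Pou2f3 at -4.95 fell, and the interval of Pou3f2 is the widest.

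Pou3f2 and Pou3f3, POU3 genes that act in neural progenitors, were not called. Pou3f3 (ENSMUSG00000045515.3, chromosome 1) had normalized counts of 5.65 and 8.16 in libraries 2 and 4 of the EpiLSC side, against 31.4 and 35.4 in libraries 1 and 3 of the nESC side. The sides did not overlap, but its log2 fold change of -2.29 (SE 1.11, 95% interval -4.46 to -0.11) was not called in the authors' deposited table (DESeq2 adjusted p 0.195, unadjusted p 0.0395). Pou3f2 (ENSMUSG00000095139.2, chromosome 4) was near the limit of detection, with 4 and 3 reads in libraries 2 and 4 of the EpiLSC side, against 5 and 2 reads in libraries 1 and 3 of the nESC side. Its log2 interval from the authors' deposited table, -3.91 to 4.35, allows a large change in either direction. The interval of Pou3f1 lay above those of Pou3f2 and Pou3f3.

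The values of the neuronal genes Pou4f2 and Pou6f1 depended on single libraries. Pou4f2 (ENSMUSG00000031688.4, chromosome 8), known from retinal ganglion cells, had normalized counts of 5.65 and 44.9 in libraries 2 and 4 of the EpiLSC side, against 25.1 and 30.8 in libraries 1 and 3 of the nESC side. Its EpiLSC libraries, 7.94-fold apart, enclosed the nESC libraries, and the log2 ratio was 0.68 without library 2 and -2.31 without library 4. In the authors' deposited table its log2 fold change of -0.16 (SE 1.19) was not called. Pou6f1 (ENSMUSG00000009739.15, chromosome 15) had 40.4 and 34.01 on the EpiLSC side, against 36.8 in library 1 and 195 in library 3 of the nESC side, all as normalized counts. Library 3 was the highest: the log2 ratio was -1.64 with all libraries, 0.01 without library 3 and -2.39 without library 1. Its log2 fold change in the authors' deposited table, -1.64 (SE 0.96, DESeq2 adjusted p 0.349), did not pass.

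**Figure D3:**
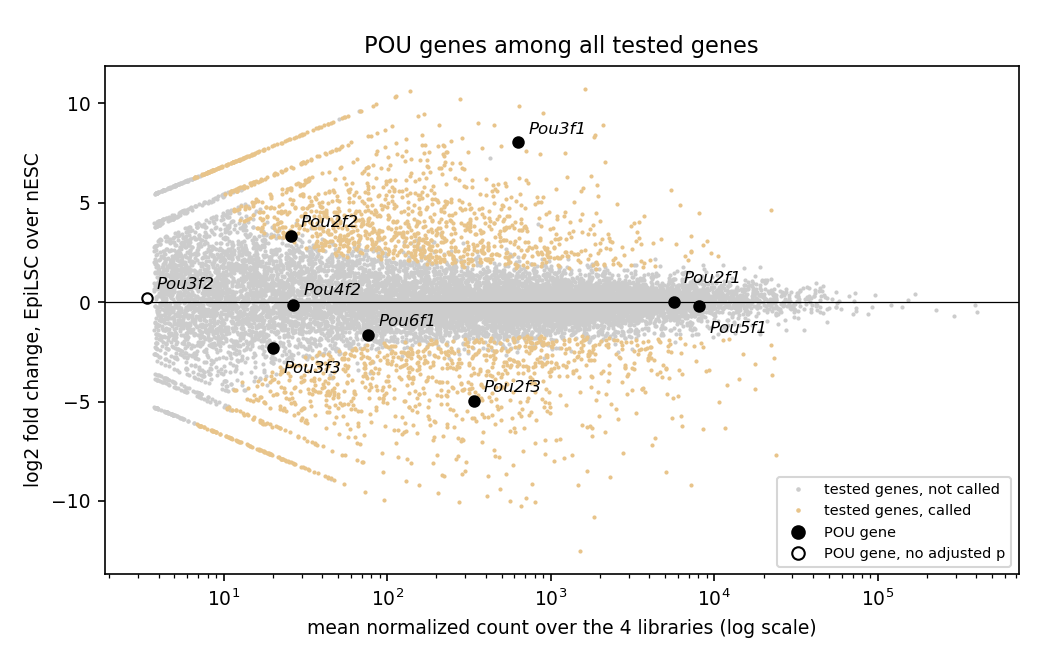
Mean normalized count over the 4 libraries (horizontal axis, log scale) against the log2 fold change of EpiLSC over nESC for all 16361 tested genes, with called genes in tan and the POU genes in black; the open circle is Pou3f2, which has no adjusted p. Pou5f1 and Pou2f1 lie at high means near 0, while Pou3f1 and Pou2f3 lie far from 0 at means of 628 and 337.

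Levels were compared between genes per kilobase of exon (union of exons in GENCODE M21), as implied by the deposited mean and fold change. In EpiLSC the order was Pou5f1 at 3344, Pou2f1 at 339 and Pou3f1 at 325 normalized counts per kilobase, followed at 7.84 or less by Pou4f2, Pou2f3, Pou2f2, Pou6f1, Pou3f3 and Pou3f2. In nESC it was Pou5f1 at 3810, Pou2f1 at 340 and Pou2f3 at 212, followed at 16.7 or less by Pou6f1, Pou4f2, Pou3f3, Pou3f1, Pou2f2 and Pou3f2. Pou3f1 thus moved to the third place in EpiLSC, against the seventh in nESC, and Pou2f3 to the fifth, against the third.

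Neighbours in these orders were not always distinct. In the EpiLSC libraries Pou2f1 (327 and 352 per kilobase) and Pou3f1 (359 and 291 per kilobase) overlapped, as did Pou4f2 with Pou2f3, Pou2f3 with Pou2f2, and Pou2f2 with Pou6f1. In the nESC libraries Pou6f1 overlapped Pou4f2, Pou3f1 overlapped Pou2f2, and Pou2f2 overlapped Pou3f2. With the longest transcript as the length, Pou2f3 and Pou4f2 changed places in EpiLSC, as did Pou6f1 and Pou2f2, and the implied level of Pou5f1 was 5519 per kilobase in EpiLSC and 6288 in nESC.

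Pou5f1 made up 82.9% of the summed level per kilobase of the 9 genes in EpiLSC and 86.7% in nESC. By library it was 87.7% and 70.9% on the EpiLSC side (libraries 2 and 4), against 87.1% and 86.1% on the nESC side (libraries 1 and 3), so the sides overlapped. The share of Pou3f1 was 8.05% in EpiLSC and 0.0281% in nESC. It differed widely within each side, at 6.24% and 12.6% on the EpiLSC side, against 0.0383% and 0.00855% on the nESC side, which did not overlap. In libraries 2 and 4 the level of Pou3f1 was 359 and 291 per kilobase and that of Pou5f1 5042 and 1645. The higher share of Pou3f1 in library 4 thus goes with less Pou5f1 there, not with more Pou3f1. The share of Pou2f3 was 0.17% in EpiLSC (0.123% and 0.285% by library) and 4.82% in nESC (4.63% and 5.11% by library). The summed level itself was 4035 per kilobase in EpiLSC and 4394 in nESC. The sum and the shares depend on the length used: with the longest transcript, Pou5f1 was at 5519 per kilobase in EpiLSC, against 3344.

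Genes most like Pou5f1 and Pou3f1 were sought by the distance between implied log2 levels of the 2 states over all tested genes. Rps15 (0.02 log2 units away), Kdm1a (0.05) and Rbm26 (0.05) came closest to Pou5f1. Nearest to Pou3f1 were Mal2 (0.39), Thbs1 (0.60) and Hs6st2 (0.65), with implied levels in EpiLSC and in nESC of 986 and 4.21 normalized counts for Mal2, 848 and 5.54 for Thbs1 and 1398 and 7.35 for Hs6st2. Thbs1 had a standard error of 2.71 in the authors' deposited table, against 0.88 for Pou3f1.

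The list drawn up as octamer-SOX element targets included 6 genes that fell, while Pou5f1 itself was not called. Whether POU5F1 and SOX2 together activate each listed gene through such an element, Spp1 included, was not tested. Of the 11 genes in the list 6 had fallen and 0 had risen, with a median log2 fold change of -2.25. Among all tested genes 6.23% had fallen and the median was 0.02. In the authors' deposited table the falls were those of Fbxo15 (-7.17, SE 0.70), Spp1 (-6.38, SE 0.64), Zfp42 (-6.22, SE 0.62), Fgf4 (-3.35, SE 0.68), Sox2 (-3.35, SE 0.64) and Nanog (-2.25, SE 0.75). Fgf4, which encodes a growth factor of the epiblast, had normalized counts of 694 and 465 in libraries 2 and 4 of the EpiLSC side, against 4120 and 7719 in libraries 1 and 3 of the nESC side.

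Tdgf1, Lefty1, Zscan10, Dppa4 and Utf1, which complete that list, did not pass. Tdgf1, the NODAL coreceptor gene, had normalized counts of 9011 and 9170 in libraries 2 and 4 of the EpiLSC side, against 6717 and 7154 in libraries 1 and 3 of the nESC side, and its log2 fold change was 0.39 (SE 0.61) in the authors' deposited table. The values were 0.42 (SE 0.66) for Lefty1, -0.07 (SE 1.00) for Zscan10 and -0.17 (SE 0.62) for Dppa4 in the authors' deposited table. Utf1, at 2.29 (SE 2.68) in the authors' deposited table, had normalized counts of 1902 and 34.01 in libraries 2 and 4 of the EpiLSC side, against 392 and 3.42 in libraries 1 and 3 of the nESC side, and the sides overlapped.

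Of 16 genes linked to the control of Pou5f1, 15 were tested, of which 2 rose and 6 fell, where 7.67% of all tested genes rose and 6.23% fell. Nr5a2, Esrrb, Klf2, Klf4 and Otx2 in this list, Tfcp2l1, Zfp42 and Sox3 in the others, are among the markers from which the sign of the comparison was read, so their direction is not independent of that reading. The nuclear receptor genes Nr5a2 and Esrrb, activators of Pou5f1 in naive cells, fell, with log2 fold changes of -8.81 (SE 0.71) and -8.54 (SE 0.69), per the authors' deposited table. Nr6a1, which encodes the repressor GCNF, rose by 2.09 (SE 0.68, DESeq2 adjusted p 0.0192), and Otx2, a regulator of the epiblast after implantation, by 3.90 (SE 0.66), per the authors' deposited table. Of the 27 genes for proteins that bind or modify POU5F1, 0 rose and 6 fell, led by Esrrb and Tfcp2l1 (-7.71, SE 0.64) in the authors' deposited table. All 6 are transcription factor genes of the naive or shared network, and the chromatin and ubiquitin ligase genes of the list did not pass. The lists overlap, so their counts are not separate evidence.

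SOX genes, whose products bind DNA beside POU factors, changed in both directions. Of 9 in the table and 7 tested, Sox11, Sox4 and Sox3 rose and Sox2 fell, where 7.67% of all tested genes rose and 6.23% fell. Sox2 had normalized counts of 674 and 1124 in libraries 2 and 4 of the EpiLSC side, against 8964 and 9373 in libraries 1 and 3 of the nESC side. Sox11 had 3793 and 6051 on the EpiLSC side, against 99.5 and 220 on the nESC side, and Sox4 had 2452 and 4742 on the EpiLSC side, against 77.6 and 245 on the nESC side. Their log2 fold changes were 4.95 (SE 0.71) for Sox11 and 4.48 (SE 0.79) for Sox4 in the authors' deposited table. Sox3 had normalized counts of 172 and 23.1 on the EpiLSC side, against 8.62 and 3.42 on the nESC side, and a log2 fold change of 3.998 (SE 1.16, DESeq2 adjusted p 0.0061) in the authors' deposited table. Sox1 (-1.98, SE 1.29), Sox15 (-0.37, SE 1.08) and Sox17 (0.97, SE 1.71) were not called in the authors' deposited table, and Sox10, whose 13 reads were all in library 2, and Sox18 had no adjusted p.

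Genes of the complex that POU2F1 helps to recruit to small nuclear RNA promoters were not called. Snapc1 (-0.35, SE 0.69), Snapc2 (-0.49, SE 0.82), Snapc3 (0.31, SE 0.64), Snapc4 (-0.18, SE 0.71) and Snapc5 (0.51, SE 0.66) had adjusted p above 0.05 in the authors' deposited table. Colca2, which was listed as a coactivator gene of POU2 factors and not for that complex, had a mean of 1.82 there and no adjusted p. Of the 10 listed POU2 coactivator genes, 6 were in the table. Of 13 neural genes linked to POU3 factors in the table, 11 were tested, 6 rose and 1, Sox2, fell. Among all tested genes 7.67% rose and 6.23% fell. Nes, an intermediate filament gene of neural progenitors, rose by 3.19 (SE 0.68) and the Schwann cell regulator Egr2 by 8.01 (SE 1.85), per the authors' deposited table. Egr2 had an implied level of 44.7 normalized counts in EpiLSC and of 0.174 in nESC, so the size of its fold is uncertain.

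**Figure D4:**
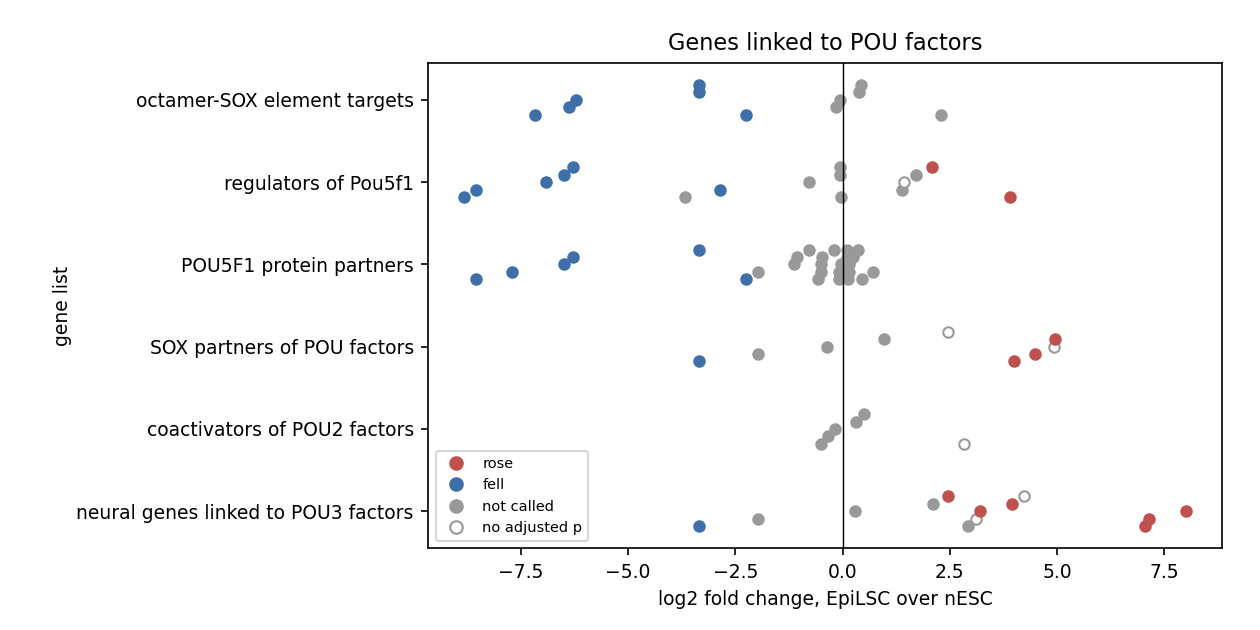
Log2 fold change of EpiLSC over nESC (horizontal axis) of each gene in 6 lists linked to POU factors (rows, with points spread vertically for legibility), coloured by whether the gene rose, fell or was not called; open circles have no adjusted p. In the octamer-SOX row 6 genes were called as fallen and 0 as risen, and in the SOX row 3 rose and 1 fell.

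Markers of the cell types in which members are best known were read beside them. In the tuft cell list Trpm5, Gfi1b, Chat and Il25 had implied levels of at most 2.65 normalized counts in EpiLSC and 1.56 in nESC, while Dclk1 (5.02, SE 0.86) and Alox5 (7.90, SE 1.63) rose in the authors' deposited table. Avil (-1.06, SE 1.32) and Ptgs1 (-1.14, SE 1.16) had adjusted p above 0.05 in the authors' deposited table. The 8 genes summed to 1757 normalized counts in EpiLSC and 103 in nESC, of which Dclk1 made up 1612 in EpiLSC and 49.6 in nESC. In the B cell list Cd79a had an implied level of 4.06 normalized counts in EpiLSC and 5.60 in nESC, near the limit of detection. Of its 5 tested genes 1 rose, Cr2 (8.96, SE 1.72), and 2 fell, Ebf1 (-2.90, SE 0.92) and Cd79b (-3.90, SE 1.44), as given in the authors' deposited table. Among all tested genes 7.67% rose and 6.23% fell. The 6 B cell genes in the table summed to 159 normalized counts in EpiLSC and 496 in nESC, of which Cr2 made up 86.5 in EpiLSC and 0.174 in nESC, and Ebf1 57.8 in EpiLSC and 430.5 in nESC. The sizes of the folds of Cr2, Alox5 and Dcn are uncertain, since each had an implied level below 1 normalized count in nESC.

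The retinal ganglion and sensory neuron list had 4 rises among 7 genes, with Nefl at 3.19 (SE 0.69) and Prph at 5.40 (SE 1.17) in the authors' deposited table, and summed to 6605 in EpiLSC and 2414 in nESC. Lists of cells that a culture could also hold were partly called as well: 2 of 6 tested fibroblast genes rose, Thy1 (4.60, SE 0.97) and Dcn (6.76, SE 1.76), as did 2 of 6 tested primitive endoderm genes, Foxa2 (6.60, SE 1.59) and Dab2 (3.35, SE 0.87), in the authors' deposited table. Of 5 tested trophectoderm genes, Krt18 (4.87, SE 1.06) and Eomes (3.18, SE 0.90) rose and Tfap2c (-5.82, SE 0.77) and Cdx2 (-5.55, SE 1.42) fell, all per the authors' deposited table. Beside the counts of these lists, 7.67% of all tested genes rose and 6.23% fell. The fibroblast list summed to 284 normalized counts in EpiLSC and 159 in nESC, with Thy1 at 141 in EpiLSC and Pdgfrb at 73.9 in nESC. The primitive endoderm list summed to 322 in EpiLSC and 106 in nESC, with Foxa2 at 143 in EpiLSC and Pdgfra at 69.9 in nESC. The trophectoderm list summed to 4024 in EpiLSC, with Eomes at 1917 and Krt18 at 1269, and to 1319 in nESC, with Tfap2c at 671. Gata6, Sox7, Elf5, Gata3 and Hand1 had implied levels of at most 2.82 in EpiLSC and 3.47 in nESC. Pdgfra, Pdgfrb and Krt8 were not called. The part of other cells in the POU values was not tested.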

How the data were processed

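Ribosomal RNA was depleted and strand-specific libraries were sequenced, per the labels. The submitters' processing notes name TopHat2, HTSeq, DESeq2 1.8.2 and the build mm9. Neither the annotation nor the strand setting of the counting is stated in the sources used here. The authors deposited 1 table, with 0 columns of single samples. Its mean normalized count, a signal, is the authors' mean over libraries of counts scaled by size factors. The log2 fold change and standard error that they deposited came from the authors' DESeq2 model. The deposited Wald score was their quotient (largest gap 5.9e-14), and the deposited p-value and its Benjamini-Hochberg adjustment followed from it (largest gaps 2.9e-15 and 2.3e-15). The 3935 genes without an adjusted p were not counted as tested.

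Levels per state were split from the mean m and the fold ratio R with equal weights: nESC is 2m/(1 + R), and EpiLSC is R times that level. Of 2368 means below 1.5, 2366 lay on sums of 4 whole-read steps, and 0 did after a random shift. A mean was split into 4 whole-read counts where only 1 split fitted (7 members) or, for Pou5f1 and Pou2f1, where only 1 split gave the deposited fold change at the deposited standard error within 0.0001. For members, the fold change so recomputed differed from the deposited one by at most 9.7e-06. The plan was to give reads only where 1 split fitted and to put no library in a group. Choosing among splits by the fold change, and placing libraries on a side of the authors' comparison by the sign of their fold change for genes read in 1 library alone, and the ratios of side means, were added after the data were seen. Genes outside the 9 with several possible splits, such as Sox2 and Fgf4, were treated as Pou5f1 was. On simulated data 60 of 60 splits were recovered. The simulated levels were set below the means of Pou5f1 and Pou2f1, so the choice among splits was not tested at their means. The simulated standard errors came from the same fit that was used to choose splits. Intervals are normal 95% intervals. Python 3.11.15 and scipy 1.17.1 were used.

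Names, exon lengths and overlaps came from GENCODE M21 and gave a symbol to 20167 of 20296 gene IDs; promoters came from RefSeq. Antisense genes overlap Pou5f1 (Gm19553), Pou3f1 (Gm2164) and Pou6f1 (Gm27209), and Cd247 and D930028M14Rik lie opposite Pou2f1 and Pou2f2; AC122898.1 overlaps Pou3f3 on the same strand. Reads of these genes, and of pseudogene copies of Pou5f1, may not be fully told apart. Nothing in the labels says that the samples are repeat cultures of a line, so p-values measure the spread between these samples. Members, lists and rules were chosen with earlier results of these data known. Named were the 9 members, all genes in the table of the octamer-SOX, SOX and POU2 coactivator lists, 2 genes of each other list in each direction by p, and the 3 genes nearest to Pou5f1 and to Pou3f1. Trpm5, Gfi1b, Avil, Ptgs1, Klf2, Klf4, Chat, Il25 and Cd79a were named after their values were seen. So were Isl1, Sncg, Rbpms, Gata6, Sox7, Elf5, Gata3, Hand1, Pdgfra, Pdgfrb, Krt8 and, in the closing part, Pou3f4 and Pou5f2.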

Additional observations from a re-analysis of the deposited data

How the results depend on the processing

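Pou3f1 and Pou2f3 stayed called under every alternative run: no filter on low means, a minimum mean of 100, a test against a 2-fold change, adjusted p under 0.01 or 0.1, and Bonferroni. Pou2f2 lost its call against a 2-fold change, at 0.01 and under Bonferroni (adjusted p 0.025 to 1 over its alternatives), and lies under the minimum mean of 100, so 1 member rose in each of these 4. Among all genes, 636 rose and 615 fell with the minimum mean of 100, 628 and 502 against a 2-fold change, and 382 and 331 under Bonferroni. Of the 72 genes in the linked lists, 11 rose and 13 fell; the rises numbered 6, 7 and 4 under these 3 settings. A level weighted by size factor must lie between the 2 libraries of its side, so this alternative could not test the levels. Weighted in this way, the EpiLSC level was 8490 for Pou5f1, against 7517, and 20.3 for Pou4f2, against 25.1. Leaving out 1 library, chosen as an alternative after seeing the data, has no test; it changed the sign for Pou5f1 (-1.21 to 0.40), Pou2f1 (-0.30 to 0.38), Pou3f2 (-0.10 to 0.68), Pou4f2 (-2.31 to 0.68) and Pou6f1 (-2.39 to 0.01). No paired analysis was possible because the table has no column per sample, so the count-based fits, TMM scaling and tests without a replicate were not run. Standard errors, with a median of 1.30 for means below 100, limit what could be called.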

Other observations

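The table also holds 6 POU genes outside the 9, of which Pou3f4 and Pou5f2 are given, as genes of the classes of Pou3f1 and Pou5f1, and the others are not used here. Pou3f4, a neural POU3 gene on the X chromosome, had 17 and 14 reads in libraries 2 and 4 of the EpiLSC side, against 0 and 0 in libraries 1 and 3 of the nESC side. Against a limit of 3 reads over the nESC side its EpiLSC mean was 11.8-fold higher, which takes the few EpiLSC reads as exact. Its log2 fold change was 6.55 (SE 2.17, 95% interval 2.29 to 10.82, DESeq2 adjusted p 0.0226) in the authors' deposited table. With 0 reads on the nESC side, the size of that fold is uncertain. Pou5f2, known from the male germ line, had 24 and 1 reads on the EpiLSC side, against 60 and 9 on the nESC side, and did not pass (-1.44, SE 1.41, in the authors' deposited table).

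Genes differed between libraries within a side in either direction. For 11 of the 30 genes whose reads were recovered, library 2 lay above library 4 on the EpiLSC side and library 1 above library 3 on the nESC side, and Pou5f1, Pou2f2, Pou2f3 and Pou3f1 were among them. For 9 of the 30, among them Pou3f3, Pou4f2 and Sox2, library 4 lay above library 2 and library 3 above library 1, and 10 followed neither order. Library 2 exceeded library 4 for Utf1 by 55.9-fold on the EpiLSC side, and library 1 exceeded library 3 by 114-fold on the nESC side. For Zscan10 these ratios were 6.37-fold on the EpiLSC side and 4.92-fold on the nESC side. The libraries were not tied to R1 or E14TG2a, and the cause was not tested.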
